A study of Homo sapiens with 6 samples.

Results

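The genes described here act in the DNA damage checkpoint and in DNA repair, and were chosen by name as 34 genes of the BRCA, checkpoint and Fanconi anaemia pathways. All 34 names were found in the expression table, which held 58825 gene identifiers, 28488 of them with a count in at least 1 sample. The table came from RNA-seq of PANC-1 cells, an established line from a human pancreatic carcinoma. Of the 6 samples, 3 were from cells exposed to 40 μM maslinic acid (MA), a triterpenoid of the olive, for 24 h (MA PANC-1 1 to 3) and 3 were from untreated cells, at 0 μM (PANC-1 1 to 3). Both groups were the same line in the same medium and carried no engineered allele, and the study describes 3 biological replicates. The study's culture methods name DMSO as the alternative to MA, while its RNA-seq methods give the controls only as 0 μM.

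A break in both DNA strands is held by the MRE11, RAD50 and NBN complex, which activates the kinase ATM, while single-stranded DNA at stalled forks activates ATR. These kinases signal through CHEK2 and CHEK1 to stop the cell cycle. BRCA1, PALB2 and BRCA2 then act together in repair by homologous recombination. The Fanconi anaemia core complex attaches ubiquitin to FANCD2 and FANCI at cross-links between the DNA strands, and many of these genes are transcribed mainly in dividing cells. In RNA from whole cultures, fewer cells in a phase of the cell cycle and less RNA per cell cannot be told apart.

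After MA, most of these genes had a slightly lower mean, by amounts within the spread between cultures for most of them. The log2 fold change was below 0 in 25 of the 34 genes, 73.5%, against 50.2% of the 17774 genes tested. In edgeR's quasi-likelihood test 7 genes had an unadjusted p under 0.05, all of them lower after MA: FANCL, FANCD2, ATR, NBN, BRIP1, BRCA2 and ATM. That was 20.6% of the 34 genes, where 11.2% of all genes tested passed in either direction and 5.86% passed as lower. None of the 34 also reached the fold change of 2 in either direction that the study required of a differentially expressed gene, a call made for 1.92% of all genes, and none had an adjusted p under 0.05 (edgeR with Benjamini-Hochberg adjustment), as 0.0394% of all genes did. The median log2 fold change of the 34 was −0.15, beside −0.0017 over all genes tested. These counts depended on the samples used. Leaving out PANC-1 3 left 2 of the 34 with an unadjusted p under 0.05, beside 6.76% of all genes in that fit. Leaving out PANC-1 1 or MA PANC-1 1 left 3 each, beside 6.63% and 7.93% of all genes, and leaving out MA PANC-1 3 gave 12, beside 18.1% of all genes.

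**Figure D1:**
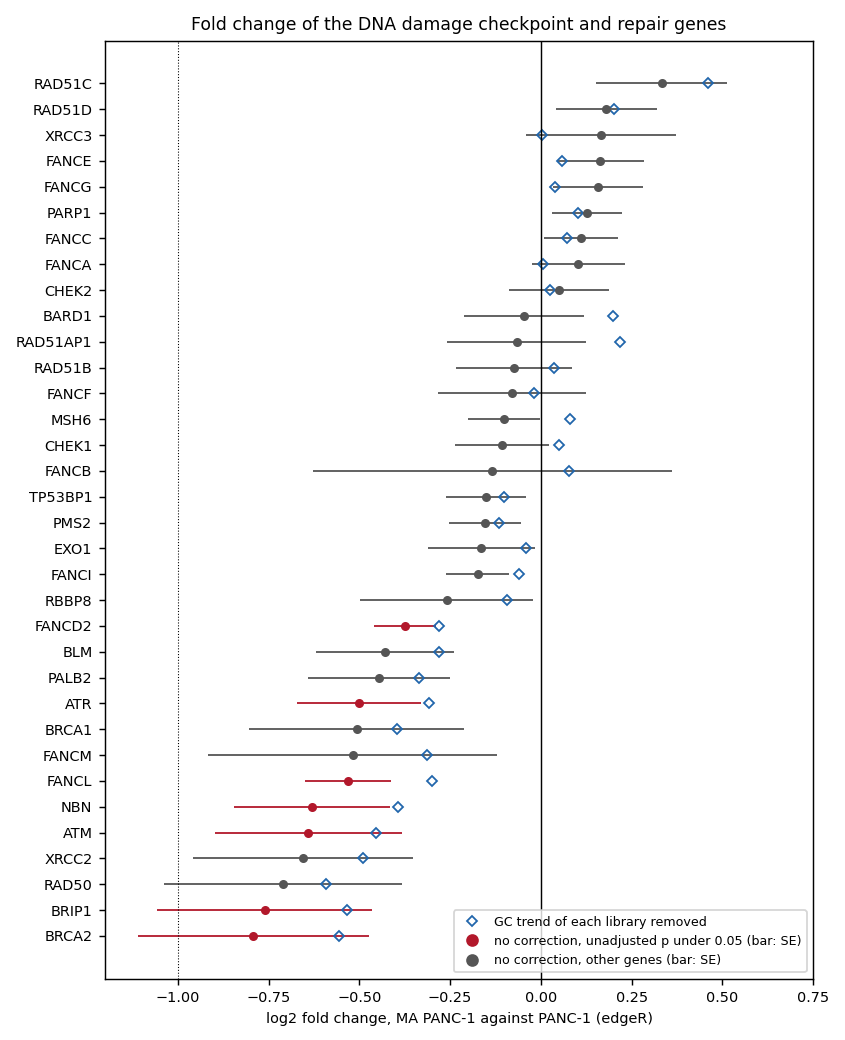
Log2 fold change of each of the 34 genes, MA PANC-1 against PANC-1, from edgeR (circles, with bars of 1 standard error; red where the unadjusted p was under 0.05), with the value after the GC trend of each library was removed (open diamonds); the dotted line marks the fold of 0.5. The 7 red genes lie between −0.79 (BRCA2) and −0.37 (FANCD2), and no circle crosses the dotted line.

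One library stood apart. MA PANC-1 2 was the lowest of the 6 samples in 24 of the 34 genes, MA PANC-1 3 in 3 and MA PANC-1 1 in none. Relative to the mean of the PANC-1 samples, the median of the 34 genes on the log2 CPM scale was −0.37 in MA PANC-1 2, −0.08 in MA PANC-1 1 and −0.09 in MA PANC-1 3, while the PANC-1 samples ranged from −0.05 to 0.04. Weighting each transcript by its count, the mean GC content of MA PANC-1 2 was 51.2%, and the other 5 samples ranged from 49.8% to 50.3%. The gap between this library and the mean of the other MA samples rose with the GC content of the longest transcript, with a Spearman correlation of 0.82 across the 34 genes and of 0.68 across 13028 genes whose mean count reached 100. Genes of 1 library share its preparation, so these are descriptions across genes and not tests. The 10 genes with a GC content under 40% were all lower in MA PANC-1 2 than in the other MA samples, with a median gap of −0.89, whereas none of the 5 genes over 50% was. FANCB, of the Fanconi core, had the widest gap at −2.0 on the log2 scale, followed by FANCM, the DNA translocase that anchors the core, at −1.41 and RAD50, which tethers broken ends, at −1.33. FANCG, also of the core, was 0.36 higher in MA PANC-1 2 and XRCC3, of homologous recombination, 0.74 higher. The stretches below show what such a difference in composition looks like. Each is 100 coding bases within 1 exon, 5′ to 3′ on the strand of the gene, from the GRCh38 genome and GENCODE 29, chosen as the first stretch with the GC content of the gene's coding sequence and printed with G and C in capitals.
FANCB (chrX:14865408-14865507, minus strand, exon 2): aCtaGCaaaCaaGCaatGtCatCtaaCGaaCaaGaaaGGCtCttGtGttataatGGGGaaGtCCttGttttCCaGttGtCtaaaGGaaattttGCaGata
FANCM (chr14:45148859-45148958, plus strand, exon 4): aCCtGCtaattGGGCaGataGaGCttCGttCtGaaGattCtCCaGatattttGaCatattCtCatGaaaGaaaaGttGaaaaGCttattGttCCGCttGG
RAD50 (chr5:132575800-132575899, plus strand, exon 3): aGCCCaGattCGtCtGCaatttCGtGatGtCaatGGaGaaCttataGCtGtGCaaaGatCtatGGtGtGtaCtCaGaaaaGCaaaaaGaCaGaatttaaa
FANCG (chr9:35078614-35078713, minus strand, exon 3): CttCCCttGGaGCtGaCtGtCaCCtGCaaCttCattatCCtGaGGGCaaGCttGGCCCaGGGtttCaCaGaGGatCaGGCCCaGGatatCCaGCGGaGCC
XRCC3 (chr14:103703195-103703294, minus strand, exon 6): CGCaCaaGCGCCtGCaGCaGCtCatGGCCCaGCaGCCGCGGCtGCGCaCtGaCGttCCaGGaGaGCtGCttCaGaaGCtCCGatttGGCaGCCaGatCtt
Capitals fill 37, 38 and 38 of the 100 bases in FANCB, FANCM and RAD50, and 57 and 63 of them in FANCG and XRCC3.

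**Figure D2:**
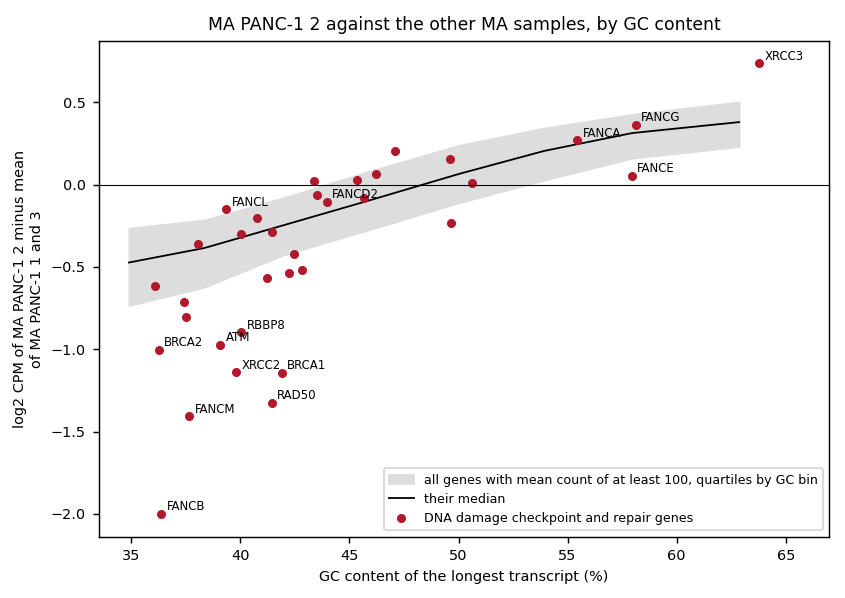
Log2 CPM of MA PANC-1 2 minus the mean of MA PANC-1 1 and 3 (vertical axis) against the GC content of the longest transcript in percent (horizontal axis), for the 34 genes (red) and, in grey, the quartiles and median of all genes whose mean count reached 100. The points climb from −2.0 for FANCB to 0.74 for XRCC3, in the direction of the grey band.

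Of the 34 genes, 24 lay below 0 on that axis, beside 49.3% of all genes whose mean count reached 100. Their median GC content was 42.1% and their median longest transcript 4660 bases, beside 48.4% and 3558.5 bases for those genes. Without MA PANC-1 2, 7 genes had an unadjusted p under 0.05, 6 lower (FANCL, FANCD2, NBN, ATM, RAD50 and XRCC2) and 1 higher (RAD51C), where 10.3% of all genes passed, and 4 of the 7 were among those named above. The median of the 34 was then −0.11. After correction for the GC trend of each library, all 7 genes named above still had an unadjusted p under 0.05, and PALB2 and BLM joined them as lower and RAD51C and RAD51AP1 as higher. That made 11, 32.4% of the 34 genes, where 14.0% of all genes passed in that fit. The number of genes below 0 fell to 19 of 34, or 55.9%, beside 46.7% of all genes, and the median was −0.05. When transcript length was corrected too, 7 genes passed, 13.6% being the share of all genes, and ATR, BRCA2 and ATM were not among them, while 21 genes were below 0, 61.8% beside 47.8% of all genes. FANCL, FANCD2 and NBN passed as lower in each of these fits. RAD51C passed in each of them as higher, but not with all samples and no correction.

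**Figure D3:**
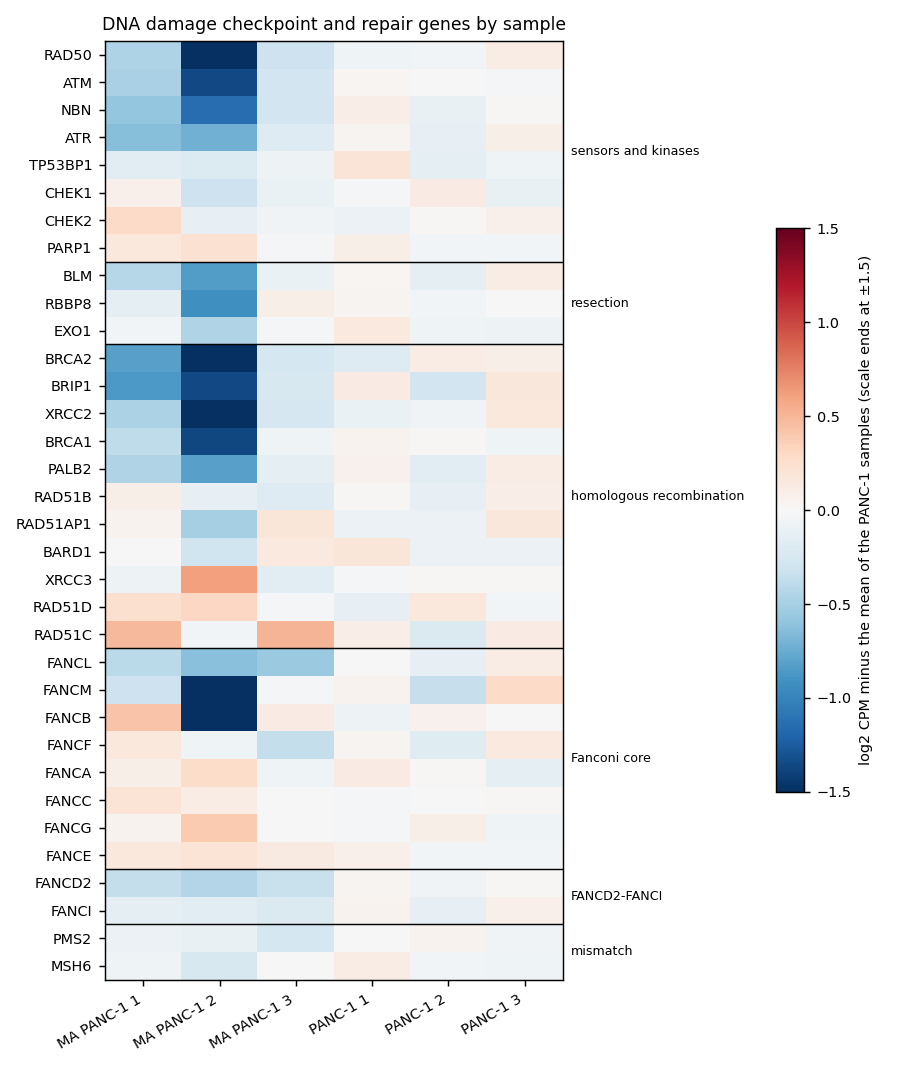
Log2 CPM of each of the 34 genes (rows, grouped by role) in each sample (columns), minus the mean of the PANC-1 samples, with the colour scale ending at ±1.5. The column of MA PANC-1 2 holds the darkest blue cells, while FANCL and FANCD2 are blue in all 3 MA samples, as are other genes such as ATR, NBN and ATM.

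The levels ranged widely. Values of single samples follow in the order of their numbers. FPKM, which scales fragments by the length of the gene and the depth of the library, allows levels of different genes to be compared. The mean over the 6 samples had a median of 4.31 FPKM over the 34 genes, against 2.49 FPKM over all genes tested. FANCG, a scaffold of the Fanconi core, was the most abundant, at 31.7, 33.7 and 30.7 FPKM in the PANC-1 samples and 33.1, 38.9 and 32.1 FPKM in the MA samples. PARP1, which marks strand breaks with poly(ADP-ribose), came next with 31.0, 27.8 and 28.2 FPKM in the PANC-1 samples and 32.2, 31.5 and 28.8 FPKM in the MA samples. FANCI, the partner of FANCD2, was the third. The order of FANCG and PARP1 is not separated by their spread, since their ranges overlapped. At the other end FANCM had 0.613, 0.459 and 0.719 FPKM in the PANC-1 samples and 0.469, 0.180 and 0.579 FPKM in the MA samples. BRCA2 and FANCB lay just above it. The values of FANCM, BRCA2 and FANCB were widely spread among the MA samples, with MA PANC-1 2 the lowest in each.

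Among the sensors, adaptors and checkpoint kinases, 6 of 8 genes were below 0, beside 50.2% of all genes, and 3 had an unadjusted p under 0.05, beside 11.2% of all genes: ATM, ATR and NBN. Without PANC-1 1 or without PANC-1 3 none of the 8 had, beside 6.63% and 6.76% of all genes, and without MA PANC-1 1 there was 1, beside 7.93%. ATM (ENSG00000149311, chromosome 11, 108222484 to 108369102), the kinase of breaks in both strands, was at 1.06, 1.03 and 1.03 FPKM in the PANC-1 samples and at 0.741, 0.376 and 0.856 FPKM in the MA samples. Every MA sample was below every PANC-1 sample, and MA PANC-1 2 was lowest by far. Its log2 fold change was −0.64 (standard error 0.26, unadjusted p = 0.0409 and adjusted p = 0.439 from edgeR with Benjamini-Hochberg adjustment), and −0.38 without MA PANC-1 2. The unadjusted p was under 0.05 in 2 of the 6 fits that left out 1 sample, being over it without MA PANC-1 1 or any PANC-1 sample. ATR (ENSG00000175054, chromosome 3, 142449235 to 142578733), the kinase of replication stress, was at 1.77, 1.56 and 1.82 FPKM in the PANC-1 samples and at 1.09, 0.965 and 1.51 FPKM in the MA samples. The groups did not overlap, but MA PANC-1 3 came close to PANC-1 2. For ATR the log2 fold change was −0.50 (standard error 0.17, unadjusted p = 0.0211 and adjusted p = 0.428 from edgeR). It had an unadjusted p under 0.05 in 2 of the 6 fits that left out 1 sample, not without PANC-1 1, PANC-1 3, MA PANC-1 1 or MA PANC-1 2, and was −0.31 after the GC correction.

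NBN (ENSG00000104320, chromosome 8), which brings ATM to the break, was at 4.48, 3.85 and 4.23 FPKM in the PANC-1 samples and at 2.77, 1.75 and 3.45 FPKM in the MA samples, again without overlap. Its log2 fold change was −0.63 (standard error 0.22, unadjusted p = 0.0215 and adjusted p = 0.429 from edgeR), and −0.39 after the GC correction. The unadjusted p was under 0.05 in all 14 alternatives that used all 6 samples, but over it without PANC-1 1 and without PANC-1 3. RAD50 did not overlap between the groups either, with 5.33, 5.37 and 6.02 FPKM in the PANC-1 samples and 4.01, 1.57 and 4.51 FPKM in the MA samples, but its log2 fold change of −0.71 had a standard error of 0.33 and missed the threshold (unadjusted p = 0.0655 from edgeR), while in DESeq2 the unadjusted p was under 0.05. Without MA PANC-1 2 RAD50 was at −0.39 and without MA PANC-1 3 at −0.96, and the unadjusted p was under 0.05 both times. The effector kinases overlapped between the groups. CHEK1, the effector of ATR, was at 6.86, 7.51 and 6.46 FPKM in the PANC-1 samples and 7.25, 5.20 and 6.48 FPKM in the MA samples. CHEK2, the effector of ATM, was at 6.72, 7.14 and 7.54 FPKM in the PANC-1 samples and 8.69, 6.10 and 6.88 FPKM in the MA samples. The 95% intervals of the log2 fold change ran from −0.41 to 0.20 for CHEK1 and from −0.27 to 0.37 for CHEK2, so that a change of 2-fold lay outside either interval. TP53BP1, which shields broken ends from resection, had a log2 fold change of −0.15 (standard error 0.11), which was −0.05 without PANC-1 1 and −0.02 after the GC and length correction. PARP1 had one of 0.13 (standard error 0.10, and 0.07 without MA PANC-1 2), and neither had an unadjusted p under 0.05.

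**Figure D4:**
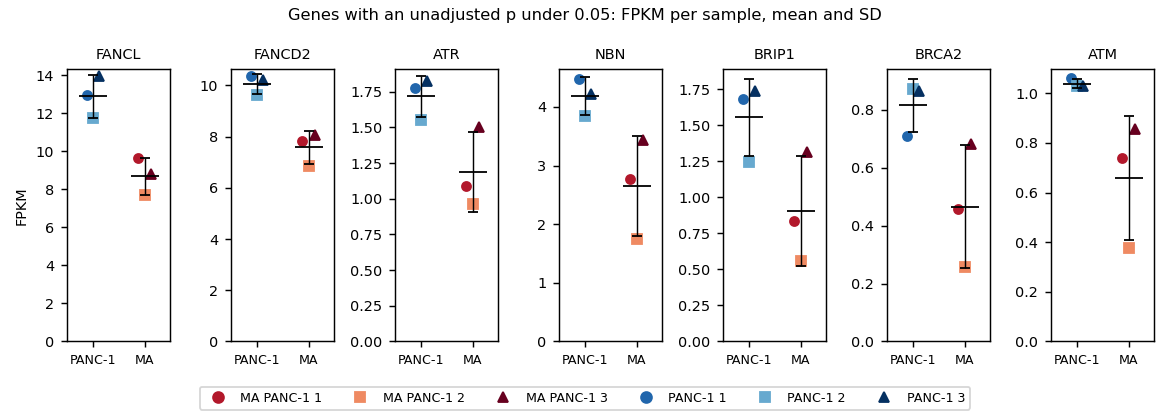
FPKM in each sample (vertical axes from 0) of the 7 genes with an unadjusted p under 0.05, with the mean and SD of each group of 3 samples. In 6 of the 7 genes all MA samples lie below all PANC-1 samples, BRIP1 being the exception, and MA PANC-1 2 (squares) is the lowest in each.

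End resection and crossover dissolution are represented by RBBP8 (CtIP), which starts resection, the exonuclease EXO1 and the helicase BLM. All 3 were below 0, beside 50.2% of all genes, and none had an unadjusted p under 0.05, beside 11.2% of all genes. BLM came closest, at 5.93, 5.21 and 6.31 FPKM in the PANC-1 samples and 4.27, 3.01 and 5.43 FPKM in the MA samples, where MA PANC-1 3 lay above PANC-1 2. Its log2 fold change was −0.43 (standard error 0.19, unadjusted p = 0.0572 from edgeR), and −0.26 without MA PANC-1 2. Without MA PANC-1 3 it was −0.62 with an unadjusted p under 0.05, which it also had in DESeq2 and after the GC correction. For RBBP8 the value was −0.26 (standard error 0.24) with all samples and −0.02 without MA PANC-1 2, and for EXO1 it was −0.16 and −0.04. The lower means of RBBP8 and EXO1 came mostly from that library.

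Of the 11 genes of the BRCA complex and homologous recombination, 8 were below 0, beside 50.2% of all genes, and 2 had an unadjusted p under 0.05, beside 11.2% of all genes: BRCA2 and BRIP1. Without MA PANC-1 1 or without PANC-1 3 none had, beside 7.93% and 6.76% of all genes, and without PANC-1 1 or PANC-1 2 there was 1, beside 6.63% and 7.72%. Without MA PANC-1 3 there were 5, in a fit in which 18.1% of all genes had an unadjusted p under 0.05. BRCA2 (ENSG00000139618, chromosome 13, 32315474 to 32400266), which acts with PALB2 in homologous recombination, was at 0.711, 0.872 and 0.865 FPKM in the PANC-1 samples and at 0.458, 0.257 and 0.682 FPKM in the MA samples. The groups did not overlap, and the lowest PANC-1 sample stood close to the highest MA sample. The log2 fold change, −0.79 (standard error 0.32, unadjusted p = 0.0402 and adjusted p = 0.436 from edgeR), was the most negative of the 34, a difference in level of −42.2%. BRIP1 (ENSG00000136492, chromosome 17, 61681266 to 61863521), the helicase that binds BRCA1, was at 1.68, 1.25 and 1.73 FPKM in the PANC-1 samples and 0.838, 0.556 and 1.31 FPKM in the MA samples, so MA PANC-1 3 lay above PANC-1 2. Its log2 fold change was −0.76 (standard error 0.30, unadjusted p = 0.0366 and adjusted p = 0.435 from edgeR). Both values depended on single libraries. Without MA PANC-1 3 they passed the fold of 0.5, at −1.15 for BRCA2 and −1.11 for BRIP1, and without MA PANC-1 2 they were at −0.52 and −0.53 with an unadjusted p over 0.05.

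BRCA1, the ubiquitin ligase at the head of the pathway, was at 3.46, 3.35 and 3.19 FPKM in the PANC-1 samples and 2.55, 1.19 and 3.19 FPKM in the MA samples. MA PANC-1 3 was level with PANC-1 3 and MA PANC-1 2 was far below all others, and the log2 fold change of −0.51 had a standard error of 0.30 (unadjusted p = 0.130 from edgeR) and was −0.22 without MA PANC-1 2. Without MA PANC-1 3 it was −0.79 with an unadjusted p under 0.05. Its partner BARD1 was at −0.05 (standard error 0.17) and went above 0 without MA PANC-1 2 and after the GC correction. PALB2, the bridge between BRCA1 and BRCA2, was at −0.45 (standard error 0.20, unadjusted p = 0.0556 from edgeR), and −0.29 without MA PANC-1 2. Without MA PANC-1 3 PALB2 was at −0.63 with an unadjusted p under 0.05, which it also had in DESeq2 and after the GC correction. XRCC2, XRCC3, RAD51B, RAD51C and RAD51D, which are related in sequence and act in homologous recombination, differed in sign. XRCC2 was at −0.65 (standard error 0.30, unadjusted p = 0.0670 from edgeR) with no overlap between the groups. It was at −0.37 without MA PANC-1 2 and −0.91 without MA PANC-1 3, and had an unadjusted p under 0.05 in both of these fits and in DESeq2. RAD51B was at −0.07 (standard error 0.16), and ranged from −0.158 to −0.0168 when a sample was left out. XRCC3 and RAD51D were at 0.17 (standard error 0.21) and 0.18 (standard error 0.14), and without MA PANC-1 2 at −0.13 and 0.11.

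RAD51C had the most positive value of the 34. It was at 3.95, 3.14 and 4.01 FPKM in the PANC-1 samples and at 5.12, 3.32 and 5.28 FPKM in the MA samples, so 2 MA samples lay above all PANC-1 samples and MA PANC-1 2 lay among them. The log2 fold change of 0.33 had a standard error of 0.18 (unadjusted p = 0.108 from edgeR). It became 0.49 without MA PANC-1 2 and 0.46 after the GC correction, with an unadjusted p under 0.05 in edgeR both times. RAD51AP1, also of homologous recombination, was at −0.07 (standard error 0.19) with all samples and at 0.22 after the GC correction. Its sign was not stable, since leaving out MA PANC-1 2 gave 0.11 and leaving out PANC-1 3 gave 0.03.

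The Fanconi anaemia core held 4 genes below 0 and 4 above, and 1 of 8 had an unadjusted p under 0.05, beside 11.2% of all genes. That gene was FANCL (ENSG00000115392, chromosome 2, 58159243 to 58241350), the ubiquitin ligase of the core that modifies FANCD2 and FANCI. It was at 13.0, 11.7 and 13.9 FPKM in the PANC-1 samples and at 9.63, 7.69 and 8.78 FPKM in the MA samples. The groups were clearly apart, and MA PANC-1 2 was not far from the other MA samples. From 12.9 ± 1.11 FPKM (SD, n = 3) the mean went to 8.70 ± 0.972 FPKM (SD, n = 3). The log2 fold change was −0.53 (standard error 0.12, 95% interval −0.81 to −0.25, unadjusted p = 0.00269 and adjusted p = 0.367 from edgeR), a difference in level of −30.8%. Leaving out each sample in turn gave values from −0.60 to −0.47 with an unadjusted p under 0.05 in all 6 fits, as it also had in 13 of the 14 alternatives with all samples. The GC correction moved it to −0.30, and with the replicate block added to that correction the unadjusted p was over 0.05. In DESeq2 its adjusted p was 0.0262, the only one of the 34 under 0.05 in that test, beside 1.48% of all genes.

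The other core genes showed smaller or wider differences. FANCE, which links the core to FANCD2, was the only one of the 34 genes in which every MA sample lay above every PANC-1 sample, at 5.33, 4.87 and 4.91 FPKM in the PANC-1 samples and 5.61, 5.36 and 5.53 FPKM in the MA samples, with a log2 fold change of 0.16 (standard error 0.12, unadjusted p = 0.214 from edgeR) that was 0.06 after the GC correction. FANCG, FANCC and FANCA were at 0.16, 0.11 and 0.10, with standard errors of 0.12, 0.10 and 0.13. After the GC correction they were at 0.039, 0.072 and 0.0064, and without MA PANC-1 2 FANCG and FANCA were at 0.023 and 0.0053. FANCF was at −0.08 (standard error 0.20). FANCM and FANCB, both near the lowest levels of the 34, were at −0.52 (standard error 0.40) and −0.13 (standard error 0.49), the widest errors of all, and FANCM was at −0.18 without MA PANC-1 2. FANCB was at 0.750, 0.815 and 0.798 FPKM in the PANC-1 samples and at 1.06, 0.214 and 0.863 FPKM in the MA samples. Of its MA samples, 2 lay above every PANC-1 sample and MA PANC-1 2 far below, and without that library its log2 fold change was 0.28.

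The transcripts of FANCD2 and FANCI, the proteins that the core modifies, both had means below those of untreated cells. FANCD2 (ENSG00000144554, chromosome 3, 10026414 to 10101930) was at 10.3, 9.62 and 10.2 FPKM in the PANC-1 samples and at 7.83, 6.86 and 8.04 FPKM in the MA samples. The MA samples lay closely together and well below the PANC-1 samples, at 7.58 ± 0.632 FPKM against 10.1 ± 0.385 FPKM (SD, n = 3 each). Its log2 fold change was −0.37 (standard error 0.09, 95% interval −0.58 to −0.17, unadjusted p = 0.00307 and adjusted p = 0.375 from edgeR), a difference in level of −22.9%. The value stayed between −0.41 and −0.34 when any 1 sample was left out, with an unadjusted p under 0.05 in all 6 fits and in all 14 alternatives with all 6 samples. FANCI was at 23.1, 20.3 and 23.5 FPKM in the PANC-1 samples and at 20.0, 18.5 and 19.2 FPKM in the MA samples. The groups did not overlap here either, by a narrow gap, and the log2 fold change of −0.17 (standard error 0.09) missed the threshold (unadjusted p = 0.0861 from edgeR). For FANCI it was −0.06 after the GC correction, −0.21 with no normalization factors and −0.24 without PANC-1 2. In the last 2 of these fits the unadjusted p was under 0.05.

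In mismatch repair, MSH6, which recognises single mispaired bases, was at −0.10 (standard error 0.10). It was at −0.04 without MA PANC-1 2 and turned to 0.08 after the GC correction. PMS2, the endonuclease of the pathway, did not overlap between the groups, with 6.65, 6.76 and 6.37 FPKM in the PANC-1 samples and 6.16, 5.65 and 5.53 FPKM in the MA samples, and had a log2 fold change of −0.15 (standard error 0.10, unadjusted p = 0.168 from edgeR). This value is uncertain, because 10 genes named as copies of PMS2 held 16038 counts beside the 17289 of PMS2 itself. Their sequences were not compared, and reads could be split among them where they match. In all, 10 genes had every MA sample below every PANC-1 sample and 1 had every MA sample above, 32.4% of the 34, beside 19.9% of all genes tested, 11.1% as lower and 8.79% as higher. For a single gene such a separation corresponds to p = 0.1 in an exact two-sided permutation test of 3 against 3, the smallest that the design allows.

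Transcript length, composition and position were not used to choose the genes. The 11 with a longest transcript over 5000 bases and a GC content under 45% had a median log2 fold change of −0.51, against −0.08 for the other 23. Over all 1942 genes tested that met the same limits the median was −0.22. After the GC correction the medians were −0.31, 0.0064 and −0.022, and without MA PANC-1 2 they were −0.34, −0.019 and −0.12. Of the 34, 18 start within 1000 bases of a gene on the opposite strand, with 13 such neighbours at a level that was tested. A start here was the outermost position of the gene in the deposited table, where most of its transcripts need not begin. The neighbour had the same sign as the gene in 10 of these 13 pairs (76.9%), as in 57.8% of all 2021 such pairs of tested genes. NBR1 is an autophagy receptor whose start lies 236 bases from the outermost start of BRCA1. NBR1 was at 10.2, 9.92 and 9.69 FPKM in the PANC-1 samples and 8.65, 7.27 and 8.34 FPKM in the MA samples, without overlap. Its log2 fold change was −0.26 (standard error 0.09, unadjusted p = 0.0187 from edgeR). DCTN5, a dynactin subunit 181 bases from PALB2, was at −1.14 (standard error 0.46, unadjusted p = 0.0398 from edgeR), but PANC-1 1 with 1.83 FPKM lay below every MA sample. These were the only 2 of the 13 neighbours with an unadjusted p under 0.05, beside 11.2% of all genes. The 2 with the next smallest p were chosen after their values were seen. NPAT, a histone gene activator whose first bases overlap those of ATM, was at −0.54 (standard error 0.25, unadjusted p = 0.0694 from edgeR). CIDECP1, a pseudogene 49 bases from FANCD2, was at 0.37 (standard error 0.16, unadjusted p = 0.0540 from edgeR), the opposite sign to FANCD2, with every MA sample above every PANC-1 sample. The library kit marks the strand, but whether the counting used it is not given in the sources used here, and without it reads of overlapping starts cannot be told apart.

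Promoters of 32 of the 34 genes were in the RefSeq table (GRCh38.p14), and the 250 bases before each start were searched on both strands. For 23 of the 32 the RefSeq start lay within 100 bases of the start in the deposited table. For the other 9 it lay farther away, by as much as 135067 bases for RBBP8, so their windows may not be those of the transcripts counted. The start in the deposited table is the outermost of the gene, so even a near match does not show that most transcripts begin there. CCAAT, the letters bound by NF-Y, was in 14 of 32 promoters (43.8%) and in 32.0% of all 35116 promoters of the table. TTTGAA, the letters of the cell cycle homology region, was in 3 (9.38%) and in 13.3%. Any of TTTGGCGC, TTTCGCGC, TTTCCCGC and TTTGGCGG, forms of the E2F motif, was in 1, that of FANCC (3.13%), and in 2.83%. The median number of CpG sites was 21.5, beside 11 over all promoters. Among the 23 alone CCAAT was in 10 (43.5%), TTTGAA in 2 and an E2F form in 1, and the median number of CpG sites was 22. Of the genes with an unadjusted p under 0.05 that were in the table, BRIP1 had the most matches to CCAAT, and its promoter is printed to show how they sit, with the matches to CCAAT alone in capitals (ATTGG is CCAAT on the other strand).
BRIP1 (chr17:61863529-61863778, minus strand): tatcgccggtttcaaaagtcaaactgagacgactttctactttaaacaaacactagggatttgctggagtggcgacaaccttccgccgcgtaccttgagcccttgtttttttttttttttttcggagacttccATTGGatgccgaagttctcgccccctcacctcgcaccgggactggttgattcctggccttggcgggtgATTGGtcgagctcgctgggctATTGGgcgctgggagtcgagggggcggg
The matches begin 117, 49 and 28 bases before the start. None of these letters was found in the promoters of FANCL and FANCD2, the genes with the smallest p of the 34, and XRCC3, at a log2 fold change of 0.17, had 5 matches to CCAAT. A match describes the letters and not a bound site.

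Other genes of the same pathways were compared in the same fit, where 50.2% of all genes were below 0 and 11.2% had an unadjusted p under 0.05. The counts of the lists changed with the samples used, as did the share of all genes with an unadjusted p under 0.05, which ran from 6.63% to 18.1% when a sample was left out. Of 28 other homologous recombination and Fanconi genes, 16 were below 0 (57.1%), with a median log2 fold change of −0.07, and 2 lower and 2 higher genes had an unadjusted p under 0.05 (14.3%). Leaving out 1 sample gave 1 to 8 such genes. GEN1, which cuts Holliday junctions, was at 1.09, 1.01 and 1.22 FPKM in the PANC-1 samples and 0.640, 0.334 and 0.750 FPKM in the MA samples, and its log2 fold change was −0.92 (standard error 0.27, unadjusted p = 0.0112 and adjusted p = 0.388 from edgeR), and SFR1, a homologous recombination cofactor, was at −0.67 (standard error 0.24). RPA1, which coats single-stranded DNA, was at 0.26 (standard error 0.09) and FAAP24, the partner of FANCM, at 0.30 (standard error 0.11). Of 18 other checkpoint genes 6 were below 0 (33.3%), with a median of 0.11, and none had an unadjusted p under 0.05 (0 to 2 when a sample was left out). Of 13 end joining genes 9 were below 0 (69.2%), and 2 had an unadjusted p under 0.05, or 0 to 5 when a sample was left out. They were PRKDC, the DNA-PK catalytic subunit, at −0.25 (standard error 0.10) and MAD2L2, of the shieldin complex, at 0.34 (standard error 0.13). After the GC correction PRKDC was at −0.18 with an unadjusted p over 0.05, and MAD2L2 was at 0.20, as it was at 0.19 without MA PANC-1 2. Of 20 mismatch and base excision repair genes 11 were below 0 and 10.0% had an unadjusted p under 0.05, among them MLH3, a mismatch repair gene, at −0.62 (standard error 0.25), which was at −0.45 with an unadjusted p over 0.05 without MA PANC-1 2. The list held 0 to 3 such genes when a sample was left out.

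Of 15 nucleotide excision repair genes 9 were below 0 (60.0%) and 2 had an unadjusted p under 0.05 (1 or 2 when a sample was left out), UVSSA, which acts in transcription-coupled repair, at −0.42 (standard error 0.15) and ERCC5, the nuclease that cuts beside the lesion, at −1.74 (standard error 0.57, unadjusted p = 0.0171 from edgeR), which also passed the fold of 0.5. ERCC5 lies inside a read-through gene, BIVM-ERCC5, and the counts of the pair differed between the groups in opposite directions. For ERCC5 the PANC-1 samples held 983, 2133 and 1990 estimated counts and the MA samples 842, 231 and 300, while for BIVM-ERCC5 they held 1821, 27 and 0 and 931, 1625 and 1834. Their sums of 2804, 2160 and 1990 and of 1773, 1856 and 2134 overlapped between the groups.

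Of 20 p53 targets 5 were below 0, beside 50.2% of all genes, with a median of 0.15. An unadjusted p under 0.05 was found in 4 of them (20.0%, beside 11.2% of all genes; 4 or 5 when a sample was left out), of which 3 were higher, the antiproliferative BTG2 at 0.59 (standard error 0.17), TP53INP1 at 0.76 (standard error 0.21) and PHLDA3, an inhibitor of AKT, at 0.49 (standard error 0.15). CDKN1A, the CDK inhibitor p21 and the best known p53 target, was at 57.7, 69.2 and 70.1 FPKM in the PANC-1 samples and at 27.8, 35.0 and 21.3 FPKM in the MA samples, without overlap. Its log2 fold change was −1.18 (standard error 0.21, unadjusted p = 0.000680 and adjusted p = 0.216 from edgeR). Of 25 S phase and mitosis genes 10 were below 0 (40.0%), with a median of 0.07, and 4 had an unadjusted p under 0.05 (16.0%). Without MA PANC-1 1 or without PANC-1 2 none of the 25 had. The ribonucleotide reductase subunit RRM2 was at 0.70 (standard error 0.24), the replication licensing factor CDC6 at 0.31 (standard error 0.11), E2F1 at 0.30 (standard error 0.12) and the helicase subunit MCM4 at −0.19 (standard error 0.08), all with an unadjusted p under 0.05. RRM2 was high in MA PANC-1 1 and 2 and at the PANC-1 level in MA PANC-1 3. Without MA PANC-1 2 RRM2 was at 0.54 and E2F1 at 0.18, both with an unadjusted p over 0.05, and after the GC correction E2F1 was at 0.16. Of the 17 genes named here from the other lists for an unadjusted p under 0.05, GEN1, BTG2, TP53INP1, PHLDA3 and CDKN1A kept it in every alternative that tested them, and the other 12 lost it in at least 1. MKI67, the proliferation marker, was at 9.93, 8.87 and 21.9 FPKM in the PANC-1 samples and 17.6, 16.9 and 9.80 FPKM in the MA samples, so that the spread within each group was wider than the difference between them (log2 fold change 0.17, standard error 0.38).

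Marker genes of carcinoma lines and of other cell types were read in every sample, and no reference profile of PANC-1 was compared. KRT8 ranged from 141 to 225 FPKM, KRT18 from 278 to 338 FPKM and VIM from 521 to 754 FPKM over the 6 samples, while KRT7 was low, from 1.40 to 2.19 FPKM, and KRT19 and EPCAM were at most 0.109 and 0.132 FPKM. The acinar genes PRSS1, CPA1 and PNLIP, the islet genes INS, GCG and SST and the T cell gene CD3E were listed at 0.0001 FPKM in every sample, the value given to a gene without reads. PTPRC, PECAM1, VWF, CDH5 and DCN were at or near that value, while CD68 (25.6 to 40.9 FPKM) and COL1A1 (2.64 to 5.96 FPKM), used as leukocyte and fibroblast markers in tissue, were present in all samples of both groups.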

How the data were processed

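Poly(A) RNA of 6 PANC-1 cultures was sequenced on an Illumina instrument from dUTP libraries. The table deposited by the authors gives each gene its FPKM per sample, at 0.0001 where it has no reads, and an estimated count, whole and not normalized. The submitters' processing notes name cutadapt 1.9, HISAT2 2.0.4, StringTie 1.3.4d, edgeR and DESeq2, without their order. The genome build is not given in the sources used here. Of 58552 identifiers found in GENCODE 29 (GRCh38), 55717 shared the chromosome and at least 1 end with it. Library totals were 56978375, 63984133 and 58181114 for the MA samples 1 to 3 and 70275355, 65607669 and 59422939 for the PANC-1 samples 1 to 3. The totals exceed the valid reads listed by the study, so precision rests on the spread between the replicates (biological coefficient of variation 0.307) and not on counting error.

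The 34 genes and all other lists were chosen with earlier results of these data known. For each name the identifier with the highest mean FPKM was used. The 17774 genes averaging 0.1 FPKM or more were fitted together with edgeR 4.0.16 (R 4.3.3; TMM factors of 0.94 to 1.02, quasi-likelihood test), with p-values adjusted by Benjamini-Hochberg over all of them. A call needed an unadjusted p under 0.05 and a fold of at least 2 or at most 0.5. The standard error was the size of the log2 fold change over the square root of F, and 95% intervals used the t distribution with the degrees of freedom of that test. All 34 genes passed the filter. Beyond the 34, the genes named were those of each list with an unadjusted p under 0.05, at most 4 in each direction. CDKN1A, MKI67 and the neighbours with an unadjusted p under 0.05 were named too. NPAT and CIDECP1 were added after their values were seen, and ERCC5 was set beside BIVM-ERCC5 for the same reason. Full values in each sample were given for the genes with an unadjusted p under 0.05, the 3 highest and 3 lowest, the central kinases and BRCA1, and for further genes where samples disagreed. GC content and length are those of the longest GENCODE transcript. The GC correction removed a loess trend (span 0.5) of each library, fitted over genes whose mean count reached 100. Log2 CPM used a prior count of 2.

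Alternatives were filters at a mean FPKM of 1 or none, RLE or no factors, DESeq2 1.42.0, limma 3.58.1 on log2(FPKM + 0.1), with 1 and 0.01 too, halved counts, the replicate number as a block, the GC corrections, summed overlapping genes, and leaving out each sample. The GC and length correction was chosen after seeing the data. In data simulated for this comparison with 200 changed genes among 17774, 140 were called at an adjusted p under 0.05, 10 of them wrongly, and 92 of 100 genes changed 2-fold had an unadjusted p under 0.05. Some items of the lists are not reported here by name. The proteome and other assays were not analysed here.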

Additional observations from a re-analysis of the deposited data

How the results depend on the processing

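The limits are those of 3 samples a group, of estimated counts that outnumber the reads, and of one MA library whose GC content differs. Over 20 alternatives 25 of the 34 genes kept the sign of their log2 fold change wherever they were tested, 18 of them lower. ATM, BRCA2, FANCB and FANCM averaged under 1 FPKM and were not tested with the filter at that level. Reversed signs came with the GC and length correction in BARD1 (0.21), RAD51AP1 (0.12), XRCC3 (−0.019), CHEK1 (0.032), FANCB (0.020) and MSH6 (0.12), with the GC correction in BARD1 (0.20), RAD51AP1 (0.22), RAD51B (0.036), CHEK1 (0.051), FANCB (0.077) and MSH6 (0.080), and with the replicate block and GC correction in BARD1 (0.20), RAD51AP1 (0.22), RAD51B (0.030), XRCC3 (−0.0092), CHEK1 (0.052) and MSH6 (0.082). When a sample was left out, BARD1 ranged from −0.15 to 0.062, RAD51AP1 from −0.21 to 0.11, XRCC3 from −0.13 to 0.31, CHEK2 from −0.089 to 0.12, FANCB from −0.53 to 0.28, FANCF from −0.21 to 0.043 and MKI67 from −0.064 to 0.69. The cause was not tested.

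Among the 34 genes, the count with an unadjusted p under 0.05 (7, beside 11.2% of all genes) was 11 in DESeq2 (12.1% of all genes), 11 with the GC correction (14.0%) and 12 with the replicate block (12.5%), and 2 to 12 when a sample was left out (6.63% to 18.1%). The count past the 2-fold call was 0, beside 1.92% of all genes, and 0 to 2 when a sample was left out. The 2 came without MA PANC-1 3, where 534 of the 17774 genes tested passed that call, beside 342 with all samples. The count with an adjusted p under 0.05 was 1 in DESeq2 and 0 in edgeR with Benjamini-Hochberg adjustment. The median log2 fold change was −0.0504 with the GC and length correction, −0.0502 with the GC correction, −0.20 in limma with either 0.01 or 0.1 added and −0.0669 with the replicate block and GC correction, and ranged from −0.21 to −0.11 when a sample was left out. Minus the median of all genes it was −0.15, and −0.0653, −0.0724 and −0.0856 with the same 3 corrections, and ranged from −0.21 to −0.0972 when a sample was left out.

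Among all genes, 1178 to 3213 had an unadjusted p under 0.05 when a sample was left out. The 342 calls at 2-fold became 93 with a filter at a mean FPKM of 1, 44 in limma with a pseudocount of 1, 569 with no filter, and 326 to 534 when a sample was left out. The 7 genes with an adjusted p under 0.05 became 263 in DESeq2, 30 with the GC and length correction, 31 with the GC correction, 12 with the filter at 1, 0 with the replicate block (2215 at an unadjusted p under 0.05), 1 with the replicate block and GC correction, and 3 to 24 when a sample was left out. Samples sharing a replicate number correlated in their deviations by 0.055, 0.112 and 0.124 over 13048 genes. Pairs with different numbers correlated by −0.103 to −0.0080. Each MA sample thus correlated best with its own number, a hint from the data and not the design. The labels give only the number, and whether samples of a number were handled together was not tested. The main fit did not pair them, and the fits with the replicate number as a block are given above.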
